A study of Mus musculus with 18 samples.

Results

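The left ventricle of young wild-type (WT) mice was compared after ischaemia and reperfusion (IR) and after sham surgery, in 6 of the 18 libraries of the study. The 6 were chosen by their labels, 3 IR and 3 sham, and all genes with enough counts were described: 13859 of the 24421 gene symbols in each table. Both groups were C57BL/6J mice of 3 to 4 months, bought from one supplier, with no transgene or deleted gene. In the IR group the left anterior descending coronary artery was tied for 45 min over a piece of tubing and the flow was then let back for 24 h. Sham mice were anaesthetised and ventilated and had the chest opened on the left, with no tie on the artery. The whole ventricle was frozen, so each library mixes the injured territory with the wall that kept its own supply. Of the other 12 libraries, used for the shared estimate of spread and for 2 comparisons at the end, 6 came from aged WT mice of 24 to 26 months and 6 from Sesn2-knockout (Sesn2-KO) mice of 3 to 4 months, each group again 3 sham and 3 IR.

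Return of blood to heart muscle that has been starved of it kills some of the cardiomyocytes it reaches and calls in neutrophils first and monocytes after them. Dying cells and the first leukocytes release interleukin 1 and interleukin 6, which drive acute-phase genes in the surviving cells and chemokines that draw in more leukocytes. Fibroblasts then degrade and rebuild the matrix, while cardiomyocytes of the border zone lower genes of their adult contractile and electrical programme.

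The 6 young libraries held 10484906 to 14258639 gene counts. Levels are given as CPM, the count of a gene scaled to a common library total, in the order sham 1, 2, 3 and IR 1, 2, 3. They allow a gene to be compared between libraries, not with another gene, since they are not per length. Fold changes are edgeR estimates on the log2 scale, IR minus sham, with the standard error after ±, and a gene was called at a Benjamini-Hochberg adjusted p below 0.05. Sesn2, the gene absent from the knockout, lay at 5.96, 2.76 and 2.91 CPM in young sham hearts and at 2.56, 4.19 and 4.23 CPM after IR. The libraries labelled Sesn2-KO lay between 0 and 0.371 CPM, below all 6 young WT libraries. Markers of ventricular cardiomyocytes were high in all 6, with 20 of 20 tested and a summed level of 72442 to 74889 CPM in sham and 58061 to 65730 CPM after IR.

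Several young libraries stood apart. The first principal component of the 6 held 50.3% of the variance. On it the sham libraries lay at -31.1, -27.4 and -29.6, IR 2 and IR 3 at 40.3 and 47.4, and IR 1 between the groups at 0.3. The second held 21.1% and set IR 1 apart, at -45.4, with the other libraries between -3.8 and 16.8. Levels also varied with transcript length. A library's level relative to the mean of its own group was rank-correlated with length across genes, so sham and IR values are centred separately. The correlation was 0.48, -0.43 and -0.13 in sham 1, 2 and 3 and -0.19, -0.1 and 0.31 in IR 1, 2 and 3. Sham 3 carried high interferon genes, and sham 1 carried atrial genes; both are described with the genes they touch. Counts of genes called below are therefore also given with each young library left out in turn, and a range of list medians marked "left out" spans the same 6 fits. A row of 6 counts marked "left out" runs through sham 1, 2, 3 and IR 1, 2, 3.

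Of the 13859 genes tested, 841 (6.07%) were called: 578 (4.17%) rose and 263 (1.9%) fell after IR. Leaving out 1 library at a time gave 344, 570, 344, 1465, 429 and 270 calls. A core of 212 genes (1.53%), 181 that rose and 31 that fell, was called in the same direction in the complete fit and in each of those 6 fits. Genes named as "in the core" below belong to it. CPM of the groups did not overlap for 540 of the 578 genes that rose and 259 of the 263 that fell, against 3220 (23.2%) of all genes tested. Overlap was read from the same 6 libraries as the calls, so it is no separate evidence for them. The rises were larger than the falls: the median log2 fold change was 1.13 among called-higher and -0.9 among called-lower genes, and 0.01 over all genes tested. A log2 fold change above 2 was reached by 131 of the genes that rose, and one below -2 by 29 of those that fell. The called-higher genes together took 16702, 18791 and 18394 CPM of the sham libraries and 28087, 38741 and 40536 CPM of the IR libraries.

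**Figure D1:**
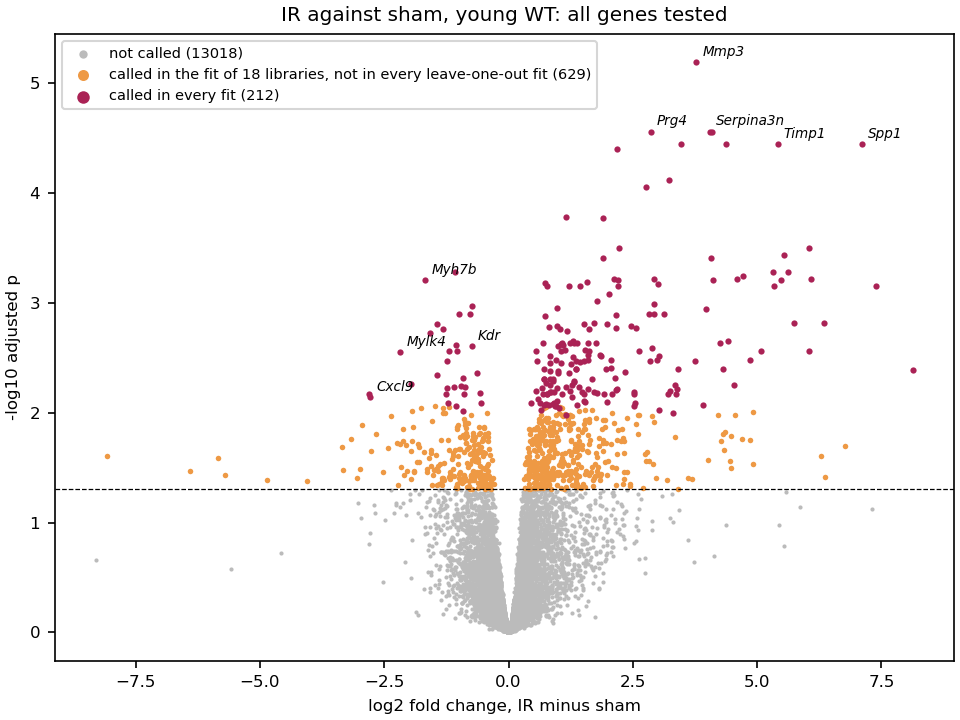
Each point is 1 of the 13859 genes tested in young WT hearts, with the log2 fold change (IR minus sham) on the horizontal axis and -log10 of the adjusted p on the vertical axis; the dashed line is an adjusted p of 0.05. Mmp3, at the top, is 1 of the 212 genes called in every fit (dark red), most of which lie on the side of a rise.

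**Figure D2:**
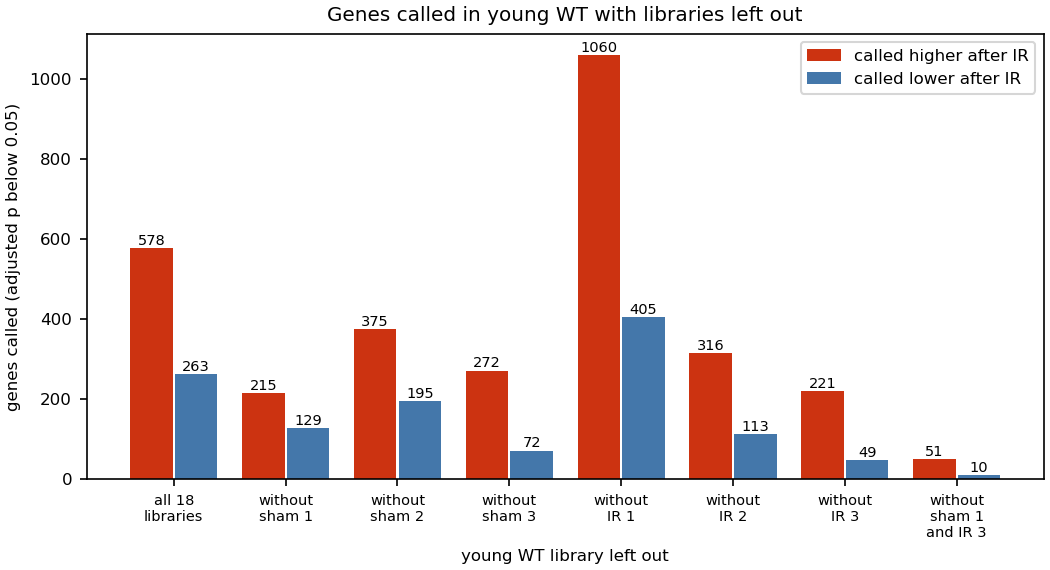
Bars give the number of genes called higher and lower after IR in young WT with all 18 libraries, with each young library left out, and without both libraries tilted by transcript length. Of the single libraries left out, IR 1 gives the most calls (1060 higher, 405 lower) and IR 3 the fewest in all (221 higher, 49 lower).

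IR 1 differed from the other injured hearts in which genes were high. It was the lowest of the 3 for 427 of the 578 genes that rose and the highest for 86. Over the genes that rose, the median difference from the sham mean was 0.66 in IR 1, 1.19 in IR 2 and 1.24 in IR 3 on the log2 scale, whereas over the genes that fell it was -0.82, -0.82 and -0.99. In the map of gene lists by library, acute-phase genes were highest in IR 1. Other lists are given for IR 1 as mean log2 CPM relative to the sham mean. Activated fibroblast, cytoskeletal, stretch-response and DNA replication genes lay within the sham range, at -0.02, 0.03, 0.01 and 0.04. Collagen chains and mitosis genes lay below it, at -0.33 and -0.71, and metalloproteinases and their inhibitors above it, at 0.66. Such a mean weighs high and low members alike. Summed CPM of collagen chains in IR 1, 2443, lay above the 2109 to 2242 CPM of sham. For mitosis genes the sum, 200 CPM, lay below the 258 to 325 CPM of sham.

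**Figure D3:**
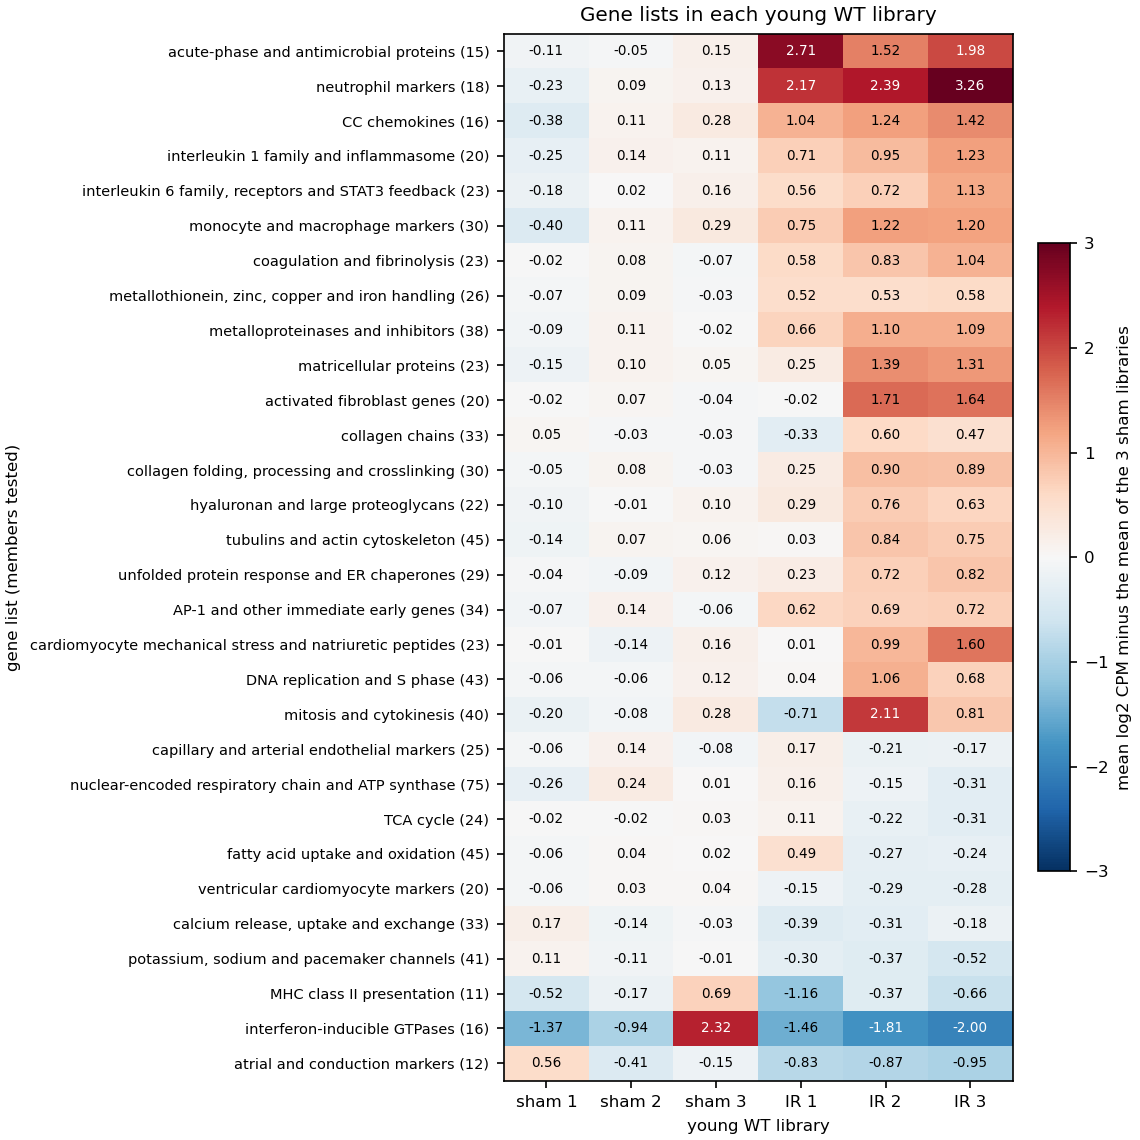
Rows are gene lists with the number of members tested, columns are the 6 young WT libraries, and each cell is the mean log2 CPM of the list minus the mean of the 3 sham libraries. Acute-phase genes stand at 2.71 in IR 1, against 1.52 and 1.98 in IR 2 and IR 3, while activated fibroblast genes stand at -0.02, 1.71 and 1.64; the interferon-inducible GTPases stand at 2.32 in sham 3.

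The 12 largest rises of the core were read from genes averaging at least 1 CPM whose groups did not overlap. Spp1, which encodes the matricellular cytokine osteopontin, lay at 0.624, 0.79 and 1.08 CPM in sham and at 31.5, 186 and 125 CPM after IR (7.1 ± 0.68, adjusted p = 3.56e-05). Timp1, the inhibitor of metalloproteinases, went from 2.08, 3.16 and 3.74 CPM to 61.3, 141 and 177 CPM (5.41 ± 0.53, adjusted p = 3.56e-05). No IR library came near the sham range for either gene. Arg1, the arginase of macrophages, lay at 0, 0 and 0.332 CPM in sham and at 8.79, 16.2 and 31.5 CPM after IR (adjusted p = 0.0007). F10, coagulation factor X, had no count in the sham libraries and 99 counts after IR (0.939, 2.84 and 4.7 CPM), at least 36.1-fold higher when 3 counts are taken as the least the sham group could show (adjusted p = 0.00409). Steap1, a metalloreductase family member, had 1 count in sham and 86 after IR, a ratio of 94.2 with an exact 95% counting interval of 16.5 to 3763 (adjusted p = 0.000606). Sprr1a, a cornified envelope protein known as a stress gene of cardiomyocytes, lay at 0.416, 0.553 and 0.0831 CPM in sham and at 4.61, 34.3 and 51.3 CPM after IR (6.35 ± 0.96, adjusted p = 0.00153). The Sprr1a level in IR 1 was the lowest of the injured hearts, as was that of the matrix protein gene Tnc, at 6.4 CPM in IR 1 against 161 and 114 CPM in the others (6.05 ± 1.01, adjusted p = 0.00276). The other 5 were Lcn2, Chil3, Il1r2, Saa3 and Cxcl5, given below with the exception of Chil3, a chitinase-like protein of macrophages, at 0.139 to 0.582 CPM in sham and 10.8 to 24.1 CPM after IR (5.73 ± 0.87, adjusted p = 0.00153).

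**Figure D4:**
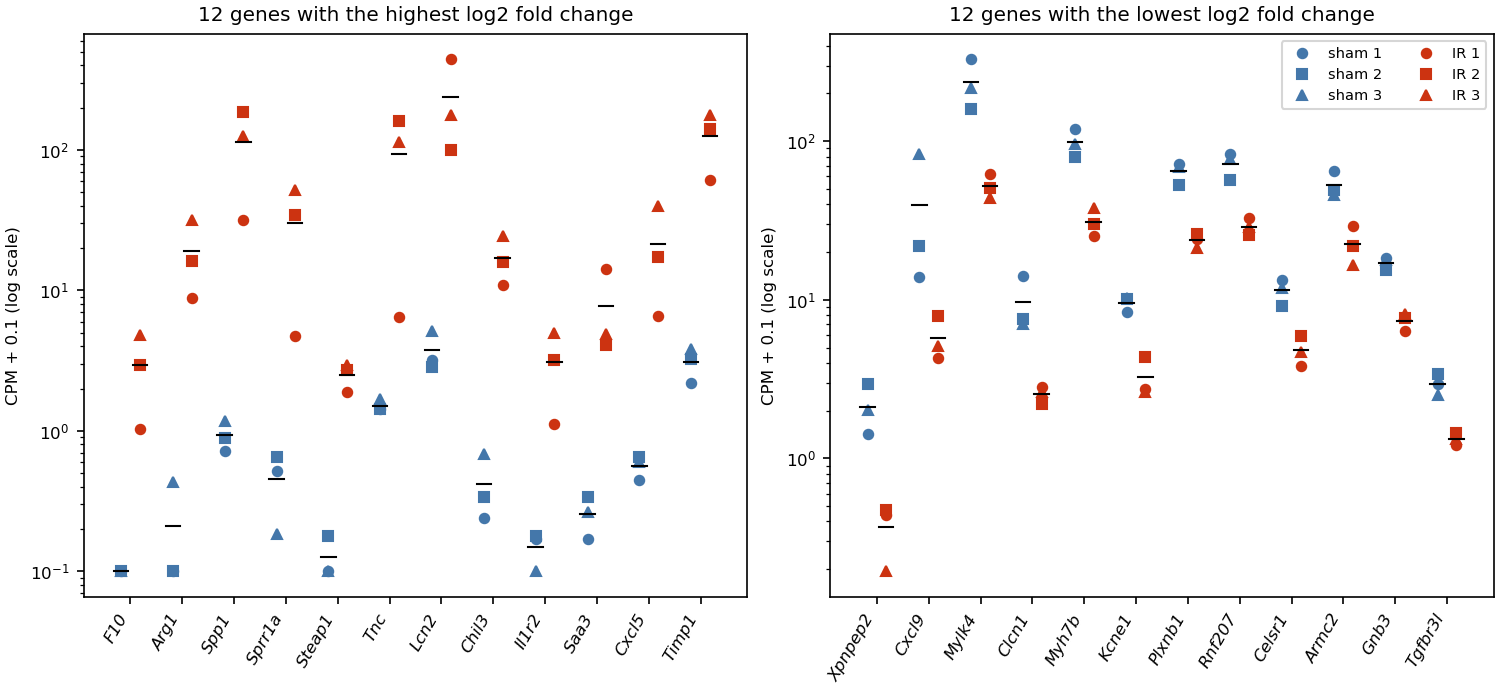
Points are CPM plus 0.1 on a log axis in each sham (blue) and IR (red) library of young WT, and black lines are group means, for the 12 highest (left) and 12 lowest (right) log2 fold changes of the core. No overlap was a condition of the choice; IR 1 (red circles) is the highest for Lcn2 and Saa3 and far below IR 2 and IR 3 for Tnc.

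The promoters of genes that moved together were read for short motifs of factors known from injury and from muscle. RefSeq gave a promoter with its start within 1000 bases of the GENCODE start for 9545 of the genes tested, and the 250 bases before the start were searched on both strands. The AP-1 letters TGANTCA stood in 4.28% of all these promoters, in 37 of 394 (9.39%) of those of genes that rose, in 18 of 114 (15.8%) of those that rose in the core, and in 5.75% of those of genes that fell. The C/EBP letters TTGCNNAA stood in 7.44% of all, 12.3% of the risen core and 9.2% of the genes that fell, and the TATA letters TATAAA in 6.52%, 14.9% and 8.05%. The STAT letters TTCNNNGAA stood in 5.89%, 6.14% and 6.9%. The MEF2 consensus, an A- and T-rich site of muscle genes, stood in 1.81% of all, in none of the 114 and in 5.75% of the promoters of genes that fell. The interferon response element stood in 2.68% of all and in 11 of 174 (6.32%) of those of genes that fell. With sham 3 left out it stood in 0 of 45, and the 11 include the GTPase genes Gbp2, Gbp3, Gbp7, Igtp, Irgm1 and Tgtp2. These fits with a library left out, like the fold bound of Sln given below, were added after seeing the data. In them AP-1 letters stood in 8.09% to 17.3% of the promoters of genes that rose, and the MEF2 consensus in 5.19% to 13.8% of those of genes that fell, the smallest set being 29 promoters. AP-1 letters stood in 0% to 11.7% of the promoters of genes that fell. Without sham 1 they stood in 9 of 77 (11.7%) of these, against 19 of 138 (13.8%) of those of genes that rose. Of the 14 motifs searched, the NF-κB consensus stood in 5.26% of the risen core against 4.41% of all promoters, the CArG consensus in 0.877% against 1.05% and the ER stress element in 0 of 114 against 0.157%. The CRE letters TGACGTCA stood in 1.75% of the risen core against 2.82% of all, the E-box CACGTG in 3.51% against 8.6% and the heat shock letters GAANNTTC in 2.63% against 4.84%. Some of these shares turned round over all 394 promoters of genes that rose. There CArG stood in 7 (1.78%), the ER stress element in 3 (0.761%) and the heat shock letters in 23 (5.84%), each above the share of all promoters. The metal response letters TGCNCNC stood in 48.2% against 52.8%, and the RUNX letters TGTGGT in 7.89% against 10.3% and in 14.4% of the promoters of genes that fell. These are matches of letters, not sites shown to be bound. The promoters below (RefSeq, GRCm38.p6, each 5′ to 3′ on its own strand, ending just before the start, with the match in capitals) belong to the 4 highest risers of the core with AP-1 letters, the lowest fallers of the core with the MEF2 consensus, and the lowest faller with the interferon response element.
Sprr1a (chr3:92485882-92486131, minus strand): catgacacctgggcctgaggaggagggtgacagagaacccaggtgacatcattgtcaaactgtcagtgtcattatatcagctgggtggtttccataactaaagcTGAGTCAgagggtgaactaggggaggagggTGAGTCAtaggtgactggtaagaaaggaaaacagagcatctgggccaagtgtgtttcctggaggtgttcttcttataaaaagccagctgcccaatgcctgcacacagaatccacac
Il6 (chr5:30012864-30013113, plus strand): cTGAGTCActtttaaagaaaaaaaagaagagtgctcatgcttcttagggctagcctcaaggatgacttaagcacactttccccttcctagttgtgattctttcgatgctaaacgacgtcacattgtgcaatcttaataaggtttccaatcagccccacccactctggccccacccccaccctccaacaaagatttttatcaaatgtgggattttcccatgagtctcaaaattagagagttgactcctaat
Il1rn (chr2:24336610-24336859, plus strand): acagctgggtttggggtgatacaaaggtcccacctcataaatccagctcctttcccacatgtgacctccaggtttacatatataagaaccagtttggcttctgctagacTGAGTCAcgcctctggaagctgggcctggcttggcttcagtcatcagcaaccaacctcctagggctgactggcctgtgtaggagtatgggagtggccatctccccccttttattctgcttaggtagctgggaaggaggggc
Slfn4 (chr11:83174936-83175185, plus strand): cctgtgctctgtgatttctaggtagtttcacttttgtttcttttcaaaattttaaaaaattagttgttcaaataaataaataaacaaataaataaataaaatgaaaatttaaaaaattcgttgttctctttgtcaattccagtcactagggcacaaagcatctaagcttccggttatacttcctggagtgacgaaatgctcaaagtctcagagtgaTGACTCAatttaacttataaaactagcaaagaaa
Mylk4 (chr13:32783965-32784214, minus strand): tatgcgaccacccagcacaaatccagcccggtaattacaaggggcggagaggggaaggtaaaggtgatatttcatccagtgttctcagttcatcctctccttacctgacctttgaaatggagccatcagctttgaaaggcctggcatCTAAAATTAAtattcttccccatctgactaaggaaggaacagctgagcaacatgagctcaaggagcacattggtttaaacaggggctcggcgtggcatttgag
Clcn1 (chr6:42286435-42286684, plus strand): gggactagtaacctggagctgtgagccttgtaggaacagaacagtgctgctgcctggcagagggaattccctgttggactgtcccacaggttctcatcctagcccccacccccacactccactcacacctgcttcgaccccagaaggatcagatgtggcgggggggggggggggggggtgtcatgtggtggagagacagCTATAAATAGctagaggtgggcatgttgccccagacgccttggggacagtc
Igtp (chr11:58199306-58199555, plus strand): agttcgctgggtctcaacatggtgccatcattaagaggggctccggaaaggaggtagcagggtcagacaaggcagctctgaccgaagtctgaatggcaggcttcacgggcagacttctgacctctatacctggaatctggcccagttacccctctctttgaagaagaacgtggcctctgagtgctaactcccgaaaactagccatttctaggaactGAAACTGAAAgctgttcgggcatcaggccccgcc

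The interleukin 1 system rose on both its activating and its restraining side. Of 20 members tested, 7 rose and none fell (7, 6, 6, 8, 7 and 6 left out), with 6 in the core, and 12 of the 20 fold changes were above 0. The median log2 fold change was 0.46, against 0.01 over all genes, and fell to 0.14 without sham 1 and 0.19 without IR 1. Il1rn, the antagonist of the receptor, whose promoter is printed above, lay at 0.208, 0.395 and 0.0831 CPM in sham and at 2.47, 8.38 and 8.08 CPM after IR (4.72 ± 0.62, adjusted p = 0.000571). Il1r2, the decoy receptor, had 2 counts in sham and 105 after IR, a ratio of 57.5 with an exact 95% counting interval of 15.5 to 481 (adjusted p = 0.000528). Il1r1, the signalling receptor, was less changed, from 21.2, 25.6 and 24.1 CPM to 38.6, 46.4 and 53.7 CPM (0.97 ± 0.15, adjusted p = 0.00164). Il18rap, a chain of the interleukin 18 receptor, rose by 2.89 ± 0.48 (adjusted p = 0.00258). The ligand Il1b, named after its values were seen, lay at 0.416, 0.711 and 0.665 CPM in sham and at 1.96, 6.28 and 10.4 CPM after IR (3.37 ± 0.65, adjusted p = 0.0067), also in the core.

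In the interleukin 6 family and its STAT3 feedback, 7 of 23 members rose and none fell (7, 7, 7, 9, 7 and 7 left out), all 7 in the core, with a median log2 fold change of 0.82 (0.48 to 1.1 left out). Socs3, the feedback inhibitor, lay at 5.41, 7.82 and 7.98 CPM in sham and at 27.2, 24.7 and 42.8 CPM after IR (2.16 ± 0.32, adjusted p = 0.0013). Osmr, the receptor chain for oncostatin M, went from 27.2, 29.5 and 30.7 CPM to 63.3, 58 and 91.9 CPM (1.29 ± 0.21, adjusted p = 0.00224). Il4ra, a receptor chain shared by interleukins 4 and 13, rose by 1.51 ± 0.23, and Bcl3, an IκB-like nuclear regulator induced by STAT3, by 1.32 ± 0.21. Il6 itself, named after its values were seen, had 2 counts in sham and 70 after IR, a ratio of 38.3 with an exact 95% counting interval of 10.2 to 323 (adjusted p = 0.00276). Its CPM after IR were 1.45, 0.748 and 4.04, so the injured hearts differed several-fold among themselves at these low levels. Of the tumour necrosis factor superfamily, 3 of 27 members rose and 2 fell (1, 3, 1, 7, 1 and 1 higher and 1, 2, 0, 2, 0 and 0 lower left out). Called members made 18.5% of this list, against 6.07% of all genes tested. The receptor Tnfrsf1a was the core member, at 69.7 to 81.4 CPM in sham and 122 to 138 CPM after IR (0.77 ± 0.11, adjusted p = 0.000704). Of 41 Toll-like receptor and NF-κB pathway genes, 4 rose (2, 1, 3, 5, 3 and 1 left out), 9.76% against 4.17% of all genes tested. The adaptor Myd88 was the core member, at 16.2 to 22.3 CPM in sham and 33.5 to 39.1 CPM after IR (0.83 ± 0.14, adjusted p = 0.00305).

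Chemokines that attract monocytes and neutrophils rose. Among 16 CC chemokines 6 rose and none fell (4, 4, 5, 7, 5 and 4 left out). Ccl2, the main ligand for monocytes, lay at 2.84, 4.42 and 5.98 CPM in sham and at 31.2, 58.9 and 54.5 CPM after IR (3.46 ± 0.34, adjusted p = 3.56e-05). Ccl7, a ligand of the same receptor, went from 2.91, 3.79 and 6.57 CPM to 26.7, 49.1 and 47.7 CPM (3.23 ± 0.34, adjusted p = 7.54e-05). Both were lowest in IR 1, yet every IR library was above every sham library. Ccl6 and Ccl9 rose by 2.2 ± 0.3 and 2.12 ± 0.28, with IR 1 at 136 CPM the highest for Ccl6. Among 13 CXC, XC and CX3C chemokines 4 rose and 1 fell (2, 3, 2, 5, 3 and 3 higher left out, with the fall called each time). The neutrophil attractants Cxcl5, at 0.346, 0.553 and 0.499 CPM in sham and 6.49, 17.3 and 39.7 CPM after IR (5.48 ± 0.74, adjusted p = 0.000617), and Cxcl1 (2.34 ± 0.42, adjusted p = 0.00423) were in the core. Cxcl9, the interferon-γ-induced attractant of T cells, was the member that fell, from 13.9, 21.6 and 82.7 CPM to 4.18, 7.85 and 4.98 CPM (-2.78 ± 0.54, adjusted p = 0.00722). The fall of Cxcl9 was called with sham 3, its highest library, left out too. Of 21 chemoattractant receptors 4 rose and 1 fell (2, 2, 2, 7, 2 and 2 higher and 0, 1, 0, 1, 0 and 1 lower left out), with Cxcr2 (4.41 ± 0.71, adjusted p = 0.00224) and C5ar1 (1.6 ± 0.26, adjusted p = 0.0023), receptors of neutrophil chemokines and of complement C5a, in the core.

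Neutrophil markers rose too. Of 18 tested, 13 rose (9, 11, 9, 13, 12 and 9 left out), 9 of them in the core, and the median log2 fold change was 4.03. Some of the markers also stand in other lists, so these counts are not separate. Among them are the chemoattractant receptors Cxcr2, Fpr1 and Fpr2, the interleukin 1 receptor Il1r2, S100a8, S100a9 and the metalloproteinases Mmp8 and Mmp9. In a whole ventricle, more cells of a type and more RNA per cell cannot be told apart, nor fewer and less. S100a8 and S100a9, the calprotectin subunits, lay at 0.901, 1.03 and 1.83 CPM and at 1.39, 2.21 and 2.91 CPM in sham. After IR they lay at 18.3, 13.9 and 32.7 CPM (4.11 ± 0.55, adjusted p = 0.000617) and at 26.7, 23.6 and 50.6 CPM (3.96 ± 0.58, adjusted p = 0.00114). Slfn4, an interferon- and myeloid-linked Schlafen gene, reached 13.9, 6.88 and 17.3 CPM from 0.474 to 0.554 CPM (4.6 ± 0.6, adjusted p = 0.000602), and the lectin Clec4d 6.91 to 11.4 CPM from 0.249 to 1.03 CPM (4.09 ± 0.37, adjusted p = 2.76e-05). The list summed to 11.8 to 18.5 CPM in sham and to 93.7 to 180 CPM after IR. The granule genes of immature neutrophils gave no rise that could be tested: Camp and Elane had no count in the young libraries, and Ltf, Ngp and Mpo, named after their values were seen, stayed at or below 0.171 CPM.

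Monocyte and macrophage markers gave a mixed picture, with 12 of 30 higher and none lower (6, 9, 9, 13, 7 and 7 left out) and a median of 0.69. The list summed to 1001 to 1518 CPM in sham and to 1696 to 2006 CPM after IR. The scavenger receptor Msr1 lay at 5.27, 7.9 and 8.81 CPM in sham and at 23.2, 37.7 and 39.2 CPM after IR (2.19 ± 0.29, adjusted p = 0.000617). Lgals3, the galectin of activated macrophages, went from 4.92, 10.8 and 8.64 CPM to 28.6, 116 and 67.7 CPM (3.13 ± 0.46, adjusted p = 0.00125). Adgre1, which encodes F4/80 and was named after its values were seen, was not called, at 20.9 to 27.1 CPM in sham and 19.1 to 39.6 CPM after IR (0.43 ± 0.26, adjusted p = 0.385). By edgeR no call was made among 11 T and NK cell markers (median -0.09, left out -0.36 to 0.26), 10 B cell markers (-0.86, left out -1.13 to -0.63) or 5 mast cell and eosinophil markers (-0.45, left out -0.67 to -0.1). At an unadjusted p below 0.05 there were 2, 3 and 0, and DESeq2 called 1, 0 and 0 and limma voom 1, 2 and 0. The B cell gene Cd79b lay at 2.43 to 2.74 CPM in sham and 0.768 to 1.2 CPM after IR (-1.29 ± 0.43, adjusted p = 0.0883). Among platelet markers Itgb3 rose from 2.08, 2.76 and 2.49 CPM to 8.11, 5.24 and 4.79 CPM (1.31 ± 0.24, adjusted p = 0.0051), and Selp, the selectin by which platelets and activated endothelium hold leukocytes, rose by 2.53 ± 0.49 (adjusted p = 0.0067). The integrin gene Itgam, the αM chain of neutrophils and macrophages, rose by 1.71 ± 0.33 (adjusted p = 0.00645). How far the leukocyte markers and the cytokine, chemokine and receptor genes above rest on the same cells was not tested.

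Acute-phase genes had their highest values in the heart that was lowest for most others. Of 15 acute-phase and antimicrobial genes 9 rose (7, 7, 6, 7, 9 and 9 left out), with a median of 2.52, and 6 of the 9 were highest in IR 1. Lcn2, the siderophore-binding lipocalin, lay at 3.12, 2.76 and 5.07 CPM in sham and at 441, 99.9 and 176 CPM after IR (6.04 ± 0.73, adjusted p = 0.000314). Serpina3n, a serine protease inhibitor, went from 13.4, 12.6 and 15.2 CPM to 319, 148 and 213 CPM (4.04 ± 0.36, adjusted p = 2.76e-05). Saa3, serum amyloid A3, reached 14.2, 3.96 and 4.79 CPM from 0.0693 to 0.237 CPM (5.54 ± 0.68, adjusted p = 0.000364). Ptx3, the long pentraxin, ran the other way among the injured hearts, at 8.62, 15 and 16.8 CPM against 0.554 to 0.79 CPM in sham (4.37 ± 0.42, adjusted p = 3.56e-05). The metallothionein genes, which bind zinc and copper, followed the first pattern. Mt2 lay at 28.5, 20.6 and 26 CPM in sham and at 229, 104 and 180 CPM after IR (2.77 ± 0.3, adjusted p = 8.88e-05), and Mt1 at 122, 142 and 125 CPM and then 492, 229 and 279 CPM (1.36 ± 0.24, adjusted p = 0.004). In the list of metal handling genes 7 of 26 rose (6, 6, 7, 7, 6 and 6 left out). The zinc importer Slc39a1 was the steadiest of them, at 82.1 to 101 CPM in sham and 144 to 157 CPM after IR (0.72 ± 0.1, adjusted p = 0.000658). Hmox1, haem oxygenase 1, rose from 15.5, 16 and 15.7 CPM to 53.8, 76.1 and 82.7 CPM (2.17 ± 0.22, adjusted p = 3.98e-05). It was the core member among the 4 of 39 NRF2, glutathione and thioredoxin genes that rose (1, 2, 1, 5, 1 and 1 left out). Those 4 made 10.3% of the list, against 4.17% of all genes tested called higher.

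Genes of clotting and clot removal rose, 8 of 23 with none lower (7, 8, 7, 11, 7 and 7 higher left out, with 2 falls called without IR 1) and 7 in the core. Besides F10 these included the urokinase receptor Plaur, at 2.22, 1.89 and 1.66 CPM in sham and 8.11, 9.95 and 13.9 CPM after IR (2.45 ± 0.38, adjusted p = 0.00164). Its ligand Plau, the urokinase gene, lay at 10 to 12.9 CPM and then at 17.2 to 24.9 CPM (0.96 ± 0.16, adjusted p = 0.0033). Anxa2, which gathers plasminogen and its activator on cell surfaces, rose by 1.22 ± 0.22 (adjusted p = 0.00437). Of 27 complement genes 4 rose and 1 fell (3, 3, 3, 6, 3 and 3 higher and 1, 0, 0, 2, 0 and 0 lower left out). The share called was 18.5%, against 6.07% of all genes tested. Clu, clusterin, an extracellular chaperone and complement inhibitor, was among the called genes with the highest mean CPM, at 657, 649 and 738 CPM in sham and 1127, 1304 and 1739 CPM after IR (1.03 ± 0.16, adjusted p = 0.00172).

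Enzymes that cut the matrix and their inhibitors rose in a form that leaving out a library hardly changed: 12 of 38 members were higher and none lower (10, 10, 10, 12, 11 and 10 higher left out, with 1 fall called without sham 1 and 1 without IR 2), and 10 were in the core. Mmp3, stromelysin 1, had the smallest adjusted p of all genes, at 4.23, 4.66 and 5.9 CPM in sham and 81.8, 60.4 and 59.5 CPM after IR (3.77 ± 0.29, adjusted p = 6.44e-06). Its group means were 4.93 ± 0.869 CPM (SD, n = 3) and 67.3 ± 12.6 CPM (SD, n = 3). Mmp19 went from 4.3, 6.47 and 4.82 CPM to 15.8, 21.8 and 20.4 CPM (1.9 ± 0.22, adjusted p = 0.000168). Adam8, a sheddase of leukocytes, reached 5.89, 29 and 27.5 CPM from 0.316 to 0.624 CPM (5.32 ± 0.69, adjusted p = 0.000528). The hyaluronan and proteoglycan genes rose in 7 of 22 cases (4, 6, 7, 8, 6 and 5 higher left out, with 1 fall called without IR 1 and 1 without IR 2). Prg4, lubricin, lay at 16, 13.9 and 15 CPM in sham and at 62.1, 118 and 146 CPM after IR (2.86 ± 0.26, adjusted p = 2.76e-05). Has1, a hyaluronan synthase, rose from 0.0693 to 0.166 CPM to 3.58, 1.5 and 1.6 CPM (4.31 ± 0.76, adjusted p = 0.004), and Tnfaip6, which crosslinks hyaluronan, by 1.54 ± 0.25. Vcan, the proteoglycan versican of provisional matrix, lay at 23.3 to 25.6 CPM and then at 44.6, 86.6 and 97.5 CPM (1.62 ± 0.27, adjusted p = 0.00275).

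Fibrillar matrix genes separated IR 1 from the other 2 injured hearts. Of 33 collagen chains 8 rose and 3 fell (4, 7, 5, 13, 4 and 4 higher and 1, 3, 2, 2, 2 and 0 lower left out), with 3 risers in the core, and all 8 that rose were lowest in IR 1. Col1a1, a chain of type I collagen, lay at 81.3, 96.6 and 94.6 CPM in sham and at 135, 420 and 314 CPM after IR (1.67 ± 0.3, adjusted p = 0.00489). Col6a3 went from 44.6, 53.6 and 50.9 CPM to 72.5, 207 and 174 CPM (1.61 ± 0.3, adjusted p = 0.00608) and Col5a2 from 57.2, 58.7 and 52.9 CPM to 73, 216 and 199 CPM (1.53 ± 0.3, adjusted p = 0.00805). Col3a1, at 267, 398 and 301 CPM in sham, lay inside the sham range in IR 1 (366 CPM) and at 1492 and 1087 CPM in the others (1.61 ± 0.38, adjusted p = 0.0194); its call was lost without sham 1, sham 3, IR 2 or IR 3. The collagen folding and crosslinking genes rose in 13 of 30 cases (6, 7, 6, 20, 6 and 6 left out). The crosslinking enzyme Lox lay at 6.38, 12.5 and 6.15 CPM in sham and at 32.5, 87.8 and 69.1 CPM after IR (2.92 ± 0.39, adjusted p = 0.000606). Loxl1, a relative of Lox, rose by 1.24 ± 0.2 (adjusted p = 0.0023). Among 20 activated fibroblast genes 7 rose (3, 4, 3, 13, 4 and 3 left out), including Cthrc1, a secreted collagen-associated protein (3.4 ± 0.6, adjusted p = 0.004). Among 20 fibroblast identity markers 5 rose (2, 5, 3, 7, 2 and 2 left out, with 1 fall called without IR 1). Their median of -0.11 ranged from -0.24 to 0.11 with a library left out and was above 0 without sham 2. Elastic fibre and basement membrane genes gave 6 higher and 5 lower of 31 (3, 5, 4, 8, 3 and 3 higher and 0, 1, 1, 3, 2 and 0 lower left out). The microfibril genes Fbn1 (1.31 ± 0.22, adjusted p = 0.00314), Fbln2 (1.06 ± 0.17, adjusted p = 0.00236) and Emilin1 (1.18 ± 0.18, adjusted p = 0.0018) were in the core. The small leucine-rich proteoglycan Fmod, fibromodulin, fell from 3.4, 9 and 7.31 CPM to 1.96, 0.973 and 0.846 CPM (-2.37 ± 0.49, adjusted p = 0.0107), a call lost without IR 2 or IR 3.

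Cytoskeletal genes followed the same split. Of 45 tubulin and actin cytoskeleton genes 14 rose and none fell (4, 4, 5, 21, 4 and 4 left out), and all 14 were lowest in IR 1. Those in the core were Capg, a capping protein (1.71 ± 0.26, adjusted p = 0.00153), Arpc1b, a subunit of the actin-branching complex (0.99 ± 0.16, adjusted p = 0.00246), Tagln2 (0.84 ± 0.16, adjusted p = 0.00556) and Tubb3, a tubulin of neurons and regenerating cells. Tubb3 lay at 2.08, 1.82 and 2.41 CPM in sham and at 6.06, 22.9 and 15.4 CPM after IR (2.81 ± 0.41, adjusted p = 0.00125). Of 10 S100 proteins 6 rose (5, 7, 5, 5, 5 and 5 left out). Beyond the calprotectin pair, S100a4, a marker of motile mesenchymal and myeloid cells, lay at 9.01, 15.3 and 16 CPM in sham and at 39.4, 75.4 and 65 CPM after IR (2.16 ± 0.33, adjusted p = 0.00168), and S100a11 rose by 1 ± 0.18 (adjusted p = 0.00438). Aldh1a2, the retinoic acid-forming enzyme of activated epicardium, went from 5.41, 16 and 5.65 CPM to 23.6, 98.7 and 98.4 CPM (3.03 ± 0.51, adjusted p = 0.00305). It was the 1 member called of 14 epicardial markers with all libraries used, and without IR 1 there were 1 rise and 4 falls. The median of that list was 0.2 with all libraries and -1.36 without IR 1. Pdpn, podoplanin, of lymphatic and mesothelial cells, reached 26.5, 37.3 and 45 CPM from 6.65 to 9.63 CPM (2.23 ± 0.27, adjusted p = 0.000314). Of the 13 endocardial, venous and lymphatic markers to which Pdpn belongs, 2 rose (1, 1, 2, 1, 2 and 1 higher and 1, 0, 0, 1, 0 and 0 lower left out). The fold change was below 0 for 8 of the 13, and the median was -0.05.

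Unfolded protein response genes rose in 12 of 29 cases, with no fall and a median of 0.59, but the count moved from 1 to 17 with the library left out (2, 6, 4, 17, 3 and 1). P4hb, protein disulfide isomerase, was the core member, at 376, 406 and 425 CPM in sham and 500, 679 and 683 CPM after IR (0.63 ± 0.12, adjusted p = 0.0082). Of 30 integrated stress response and serine synthesis genes 5 rose and 1 fell (3, 3, 4, 8, 3 and 2 higher and 0, 1, 1, 2, 1 and 0 lower left out). Psat1, an enzyme of serine synthesis, lay at 5.68, 6.32 and 7.73 CPM in sham and at 16.9, 23.9 and 25.5 CPM after IR (1.75 ± 0.28, adjusted p = 0.0023). The amino acid transporter chain Slc3a2 rose by 0.66 ± 0.13 (adjusted p = 0.00938). Among 34 immediate early genes 9 rose (6, 11, 4, 10, 7 and 5 higher left out, with 1 fall called without IR 1). Those 9 made 26.5% of the list, against 4.17% of all genes tested called higher. The AP-1 subunit Junb lay at 18.6, 32.7 and 20 CPM in sham and at 57.5, 54.8 and 69.5 CPM after IR (1.35 ± 0.23, adjusted p = 0.0034). Ier3, a survival gene of the immediate early class, rose by 0.95 ± 0.19 (adjusted p = 0.00872). Cebpd, a C/EBP factor of the acute phase, went from 14.3, 22.8 and 19.3 CPM to 66, 41.8 and 45.2 CPM (1.44 ± 0.2, adjusted p = 0.000704), again highest in IR 1.

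The 12 lowest log2 fold changes of the core, chosen by the same rule, included several genes of heart and skeletal muscle. Mylk4, a kinase of the myosin light chain kinase family found in heart muscle, lay at 328, 160 and 217 CPM in sham and at 61.7, 50.5 and 43.6 CPM after IR (-2.18 ± 0.36, adjusted p = 0.0028). Myh7b, a slow myosin heavy chain gene that hosts a muscle microRNA, went from 120, 79.4 and 95.7 CPM to 25.1, 30 and 37.7 CPM (-1.67 ± 0.22, adjusted p = 0.000617). For both, the highest IR library was below the lowest sham library by a wide margin. Rnf207, a ring finger protein linked to cardiac repolarisation, lay at 82.7, 56.6 and 76.7 CPM and then at 32.5, 25.4 and 28.5 CPM (-1.32 ± 0.21, adjusted p = 0.00172). Plxnb1, a semaphorin receptor, lay at 52.8 to 71.6 CPM and then at 21 to 26 CPM (-1.44 ± 0.22, adjusted p = 0.00155). At lower CPM were Clcn1, the muscle chloride channel (-1.96 ± 0.36, adjusted p = 0.00549), Xpnpep2, an aminopeptidase (-2.82 ± 0.54, adjusted p = 0.0067), Gnb3, a G protein subunit (-1.23 ± 0.21, adjusted p = 0.0034), and Celsr1, a planar polarity cadherin (-1.26 ± 0.24, adjusted p = 0.0067). Armc2 (-1.24 ± 0.23, adjusted p = 0.00592) and Tgfbr3l (-1.21 ± 0.24, adjusted p = 0.00815) complete the 12 with Kcne1 and Cxcl9. The promoters of Mylk4 and Clcn1 printed above hold the MEF2 consensus.

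Ion channel genes fell in 6 of 41 cases with none higher (3, 5, 2, 8, 4 and 2 lower left out, with 1 rise called without IR 1). Those 6 made 14.6% of the list, against 1.9% of all genes tested called lower. Kcne1, a subunit of the slow delayed rectifier, lay at 8.25, 10 and 10.2 CPM in sham and at 2.65, 4.26 and 2.54 CPM after IR (-1.58 ± 0.25, adjusted p = 0.00189). Abcc8, a sulfonylurea receptor of ATP-sensitive potassium channels, lay at 52.8, 49.8 and 48 CPM and then at 28.3, 29.9 and 29.3 CPM (-0.78 ± 0.12, adjusted p = 0.00126), a narrow spread in both groups. Kcnj11, a pore subunit of such channels, fell from 219, 202 and 212 CPM to 169, 151 and 127 CPM (-0.5 ± 0.11, adjusted p = 0.0138), a call lost without sham 1, sham 3 or IR 3. Of 33 calcium handling genes 1 (3.03%) was called with all libraries used, a fall. Over all genes tested 6.07% were called and 1.9% called lower. The member was Camk2b, a chain of the calmodulin kinase II, at 20.9 to 22.3 CPM in sham and 13.3 to 15 CPM after IR (-0.64 ± 0.11, adjusted p = 0.00437). Without IR 1 a second fall and 1 rise were called in that list.

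Genes of the contractile apparatus were called about as often as all genes tested (5.56% against 6.07%). All their calls were falls, against 1.9% of all genes called lower. Of 36 sarcomere and Z-disc genes 2 fell, Lmod3 and Mybpc3 (1, 2, 1, 3, 2 and 2 lower left out, with 2 rises called without IR 1), and the median was -0.16 (-0.19 to -0.08 left out). Lmod3, an actin filament nucleator of the sarcomere, was in the core and fell by 0.99 (SE 0.15, adjusted p = 0.00126), from 177 to 213 CPM in sham to 77.8 to 119 CPM after IR. Mybpc3, the myosin-binding protein C of the heart and the called gene with the highest mean CPM, lay at 4165, 3733 and 4236 CPM in sham and at 2126, 2851 and 3060 CPM after IR (-0.59 ± 0.13, adjusted p = 0.0134). Its groups did not overlap, but the call was lost without sham 1 or sham 3. Myh6, the adult myosin heavy chain, was not called, at 15250, 12651 and 14704 CPM in sham and 12854, 9762 and 8777 CPM after IR (-0.44 ± 0.16, adjusted p = 0.108). Myh7, the fetal isoform, varied between libraries of the same group, at 270, 71.5 and 1026 CPM in sham and 126, 217 and 927 CPM after IR (-0.11 ± 0.94, adjusted p = 0.969).

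The natriuretic peptides and skeletal actin, markers of stretched cardiomyocytes, were high in IR 2 and IR 3 and not in IR 1. Nppa, atrial natriuretic peptide, lay at 228, 213 and 272 CPM in sham and at 143, 682 and 699 CPM after IR (1.1 ± 0.55, adjusted p = 0.274). Nppb, the brain type, lay at 136, 197 and 212 CPM and then at 59.7, 450.0 and 551 CPM (0.96 ± 0.67, adjusted p = 0.465). Acta1, skeletal actin, lay at 307 to 344 CPM and then at 251, 600 and 957 CPM (0.88 ± 0.53, adjusted p = 0.372). For these 3 genes IR 1 was below every sham library, and none was called. Of the list, 4 of 23 rose (1, 2, 2, 7, 3 and 1 left out), with Sprr1a in the core. Sprr1a, Fhl1 and Ankrd2 were above every sham library in IR 1 too. Fhl1, a LIM protein of the stretch response, lay at 199, 167 and 175 CPM in sham and at 320, 769 and 1360 CPM after IR (2.18 ± 0.5, adjusted p = 0.0178), a call lost without any 1 sham library or without IR 3. Ankrd2 reached 4.35, 15.9 and 46.2 CPM from 0.554 to 0.831 CPM (4.92 ± 1.01, adjusted p = 0.0099), and its call was lost without sham 1 or IR 3.

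Genes of energy metabolism gave few calls outside glycolysis and glucose uptake. For fatty acid and TCA cycle genes IR 1 lay above the sham range and IR 2 and IR 3 below it. Relative to the sham mean, fatty acid genes lay at a mean log2 CPM of 0.49, -0.27 and -0.24 in IR 1, 2 and 3. The sham libraries lay at -0.06 to 0.04. TCA cycle genes lay at 0.11, -0.22 and -0.31, against -0.02 to 0.03 in sham. Respiratory chain genes lay at 0.16, -0.15 and -0.31, against -0.26 to 0.24 in sham. None of 75 nuclear-encoded respiratory chain genes (median -0.1, left out -0.24 to 0.04), 24 TCA cycle genes (-0.15, left out -0.29 to -0.07) and 24 branched-chain amino acid and ketone genes (-0.22, left out -0.42 to -0.12) was called by edgeR with all libraries. At an unadjusted p below 0.05 there were 0, 3 and 3, and DESeq2 called 0, 0 and 1 and limma voom 1, 5 and 9. Without IR 1 edgeR called 1 TCA cycle gene higher, and 1 higher and 3 lower of the amino acid and ketone genes. With all libraries the fold change was below 0 for 75 of 75 respiratory chain genes. It was below 0 for 22 of 24 TCA cycle genes and 22 of 24 amino acid and ketone genes. The respiratory chain median was 0.04 without sham 2. Dlst, a subunit of the oxoglutarate dehydrogenase complex, lay at 883 to 906 CPM in sham and 688 to 799 CPM after IR (-0.27 ± 0.12, adjusted p = 0.196). Of 45 fatty acid genes 1 rose (0, 1, 0, 2, 1 and 0 higher left out, with 2 falls called without IR 1), Angptl4, the lipoprotein lipase inhibitor, at 7.35, 11.8 and 6.98 CPM in sham and 67.4, 19.2 and 72.5 CPM after IR (2.6 ± 0.54, adjusted p = 0.0105). Its call was lost without sham 1, sham 3 or IR 3. Of 40 glycolysis and glucose uptake genes 2 rose and 2 fell (1, 1, 1, 3, 1 and 1 higher and 0, 0, 0, 4, 0 and 0 lower left out). Slc16a3, the lactate exporter, lay at 1.99 to 2.21 CPM in sham and at 6.83, 12.6 and 16.9 CPM after IR (2.54 ± 0.5, adjusted p = 0.0082) and was in the core. Slc2a4, the insulin-sensitive glucose transporter, lay at 613, 565 and 533 CPM and then at 464, 399 and 279 CPM (-0.58 ± 0.15, adjusted p = 0.0348), and Pfkm, muscle phosphofructokinase, at 1190 to 1395 CPM and then at 817 to 1086 CPM (-0.47 ± 0.13, adjusted p = 0.0492). Both falls were lost when any 1 of the young libraries except IR 1 was left out. Of 37 mTORC1, GATOR and sestrin genes 1 was called (2.7%, against 6.07% of all genes tested). Rragd, a Rag GTPase of lysosomal nutrient sensing, fell from 171, 145 and 166 CPM to 107, 114 and 102 CPM (-0.58 ± 0.11, adjusted p = 0.00661), in the core. The sestrins were not called, Sesn1 at -0.16 ± 0.19 (adjusted p = 0.684), Sesn2 at -0.09 ± 0.39 (adjusted p = 0.93) and Sesn3 at -0.01 ± 0.32 (adjusted p = 0.994).

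Endothelial identity genes gave 1 call (4.0% of the list), against 6.07% of all genes tested. Of 25 capillary and arterial markers Kdr, the main receptor for VEGF-A, fell from 258, 275 and 253 CPM to 147, 176 and 146 CPM (-0.75 ± 0.12, adjusted p = 0.00247), in the core. The list summed to 10391 to 11145 CPM in sham and to 9311 to 13555 CPM after IR, and the general endothelial genes Pecam1 (249 to 278 CPM in sham, 228 to 298 CPM after IR) and Cdh5 (280 to 308 CPM and 257 to 283 CPM), named after their values were seen, were not called. Of 15 pericyte and smooth muscle markers 2 fell (0, 1, 0, 1, 1 and 0 lower left out, with 1 rise called without IR 1). Those 2 made 13.3% of the list, against 1.9% of all genes tested called lower.

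Cell division genes gave few calls with all libraries used and the most with IR 1 left out. Of 43 DNA replication genes 5 rose (0, 0, 1, 22, 0 and 0 left out), with 0 in the core. Of 40 mitosis genes 1 rose and 2 fell (0, 0, 0, 21, 0 and 0 higher and 1, 1, 0, 1, 2 and 0 lower left out), with 0 in the core. The fold change was above 0 for 42 of the 43 and 38 of the 40. The medians were 0.56 (0.35 to 0.82 left out) and 1.43 (0.33 to 1.9 left out), both lowest without IR 2. Uhrf1, a maintenance factor of DNA methylation, lay at 2.01, 2.13 and 4.07 CPM in sham and at 4.27, 19.8 and 13.5 CPM after IR (2.21 ± 0.48, adjusted p = 0.0143), a call lost without sham 1, sham 2, IR 2 or IR 3. Top2a, the topoisomerase of dividing cells, named after its values were seen, lay at 5.82, 4.42 and 8.64 CPM and then at 2.9, 37.9 and 15.9 CPM (adjusted p = 0.237). The mitosis list summed to 258 to 325 CPM in sham, to 200 CPM in IR 1 and to 666 and 332 CPM in IR 2 and IR 3. Which cells divided cannot be told from these libraries.

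Interferon-inducible GTPases, which act against intracellular microbes, were called lower in 11 of 16 cases with none higher, but the call rested on sham 3 (14, 14, 0, 8, 1 and 0 lower left out). Gbp4 lay at 44, 64 and 354 CPM in sham and at 25.4, 21.9 and 25.1 CPM after IR (-2.67 ± 0.6, adjusted p = 0.0156). Igtp, whose promoter is printed above and which was chosen by its fall and its motif, lay at 29, 46.2 and 1636 CPM and then at 47.4, 27.8 and 28.6 CPM (adjusted p = 0.0419). Its levels in sham 1 and 2 lay inside the IR range. The list summed to 517 and 688 CPM in sham 1 and 2, to 8166 CPM in sham 3 and to 387 to 637 CPM after IR. Genes of MHC class II presentation, which interferon-γ induces, had 4 of 11 lower and 1 higher (0, 0, 1, 1, 0 and 0 higher and 5, 3, 0, 0, 1 and 0 lower left out). H2-Aa lay at 98.9, 138 and 287 CPM in sham and at 38.5, 73.3 and 49.9 CPM after IR (-1.7 ± 0.41, adjusted p = 0.0226), so here all 3 sham libraries were above the IR range; the call was lost without sham 3, IR 1 or IR 3.

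Atrial genes were high in sham 1, though each library is labelled left ventricle. Myl7, the atrial light chain, lay at 36.7, 4.66 and 5.07 CPM in sham and at 1.71, 0.15 and 0.094 CPM after IR (adjusted p = 0.19). Sln, sarcolipin, lay at 7.41, 0.711 and 1.16 CPM in sham and had no count after IR, at least 39.6-fold lower by the same reckoning, with 3 counts for the IR group (adjusted p = 0.22). Sham 1 held 107 of its 130 counts, and without sham 1 the bound is 11.1-fold. Neither was called. Of the 12 atrial and conduction markers 1 was called, Clu, which other cells also express, and the defining gene Bmp10 had no count.

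The response of young WT hearts was set beside those of the other 2 kinds of mice, each IR group against its own sham group. No gene was called for a difference between the responses of aged and young WT (0% of 13859 genes by edgeR, 0 by DESeq2 and by limma voom, 152 at an unadjusted p below 0.05). Of the 578 genes that rose in young WT, 576 had a log2 fold change above 0 in aged WT, and of the 263 that fell, 258 had one below 0. Over all genes tested 50.8% were above 0 in young WT. That share was not counted in aged WT or Sesn2-KO. Their medians in aged WT were 0.95 and -0.75. The background of calls in aged WT was 7.61%, and 527 of the 841 genes were called there too. Timp1 stood at 5.41 ± 0.53 in young and 4.9 ± 0.5 in aged WT, Mylk4 at -2.18 ± 0.36 and -1.49 ± 0.36, and Kdr at -0.75 ± 0.12 and -0.46 ± 0.12. Arg1 stood at 7.38 ± 1.01 and 9.86 ± 1.16. An absence of calls does not show that the responses were equal.

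In Sesn2-KO hearts edgeR called 0% of genes for IR against sham, with 2037 genes at an unadjusted p below 0.05, while DESeq2 called 140 and limma voom 1233. The genes that rose in young WT had a median log2 fold change of 0.5 there, with 542 of 578 above 0, and those that fell a median of -0.3, with 236 of 263 below 0. The difference between the responses was called for 8 genes (0.0577%), which all rose in young WT: Serpina3n, Lcn2, Ptx3, Spp1, Clec4d, Saa3, Hmox1 and Mmp3. Leaving out the young libraries in turn gave 2, 3, 2, 16, 9 and 6 calls. Mmp3 and Serpina3n were among them each time. Serpina3n stood at 4.04 ± 0.36 in young WT and at -0.21 ± 0.31 in Sesn2-KO, a difference of -4.26 ± 0.46 (adjusted p = 0.000711). Mmp3 stood at 3.77 ± 0.29 and 0.45 ± 0.24, a difference of -3.32 ± 0.37 (adjusted p = 0.000711). In Sesn2-KO sham hearts Mmp3 already lay at 115, 87.7 and 88.8 CPM, above the 59.5 to 81.8 CPM of injured young WT hearts, and after IR it lay at 109 to 146 CPM. Serpina3n lay at 365, 549 and 723 CPM in Sesn2-KO sham hearts and at 406 to 553 CPM after IR. Genotype and source of the mice changed together, so their parts in this difference cannot be told apart.

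**Figure D5:**
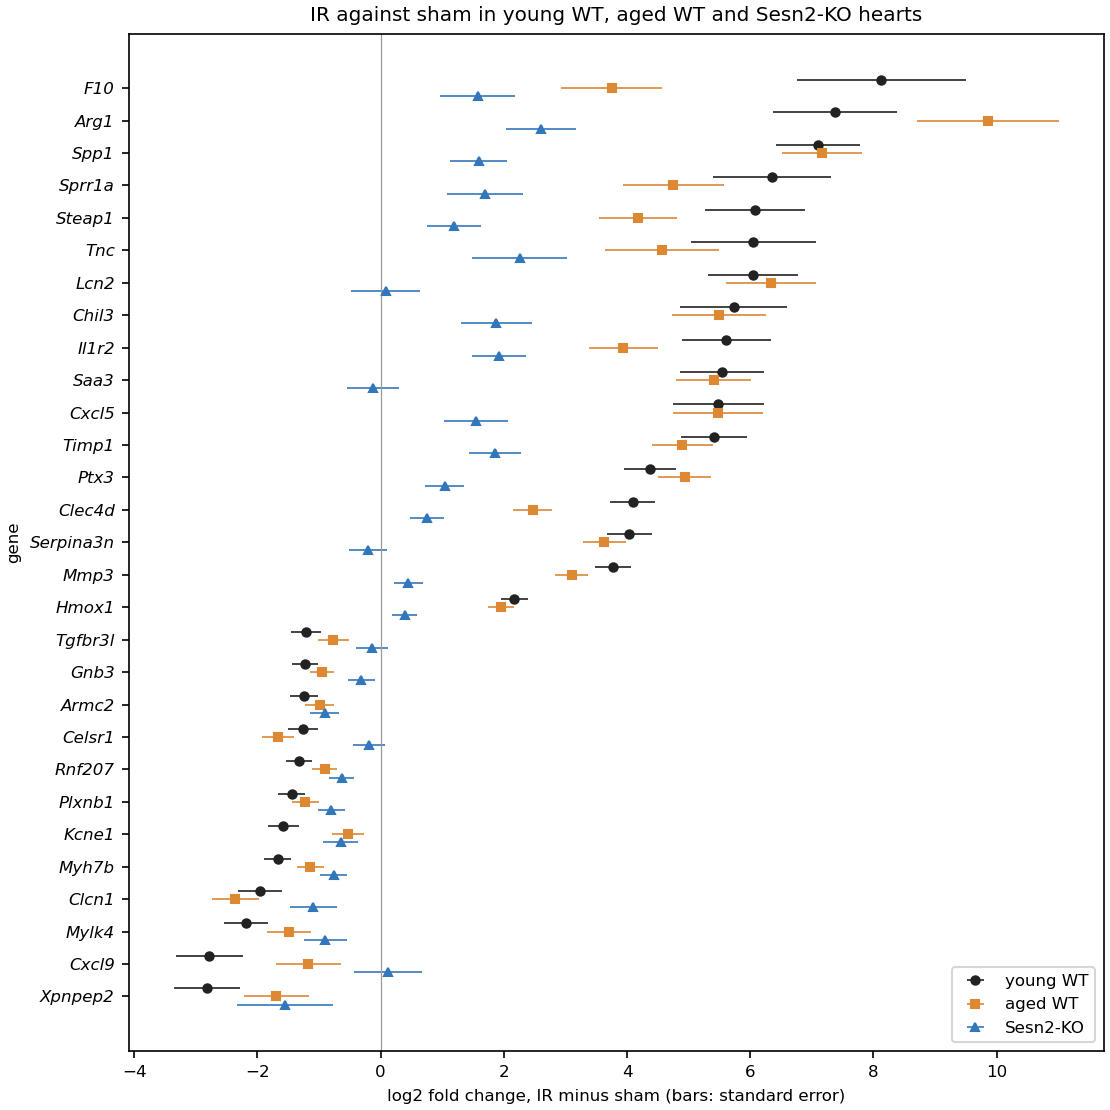
Points give the log2 fold change (IR minus sham) and bars its standard error in young WT (black circles), aged WT (orange squares) and Sesn2-KO (blue triangles), for the 24 genes with the highest and lowest values of the core and 5 further genes with a different response in Sesn2-KO. Aged WT values lie near those of young WT for most genes, while Lcn2, Saa3 and Serpina3n lie near 0 in Sesn2-KO.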

How the data were processed

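RNA of 18 mouse left ventricles was sequenced (stranded mRNA kit, paired-end reads), per the labels' protocols, and the 6 of young WT are the subject here. The authors deposited whole-number fragment counts per gene, not normalized, 1 table per library. Per the submitters' processing notes, the build was mm10 and the tools included HTSeq, TopHat2, Bowtie2, SAMtools and FastQC; their versions, the strand setting and the gene models were not stated there. Fragments in no gene (6.2% to 9.06%) or in several (0.63% to 0.75%) stayed out. Groups came from the sample titles; nothing says which hearts shared a litter or a day, so the p-values reflect how far these samples scatter, which may be partly technical. No 2 replicates held the same values (chi-square divided by its degrees of freedom 13.96 to 46.6 in young WT).

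Counts were filtered (filterByExpr), TMM-scaled and fitted in 1 edgeR 4.0.16 quasi-likelihood model with a mean per group over 18 libraries (R 4.3.3), with Benjamini-Hochberg adjustment over 13859 genes. The steps were tested on simulated data. Alternatives used DESeq2 1.42.0, limma 3.58.1, other scaling, no filter, a length covariate and fewer libraries. The counting intervals and the floor of 3 counts hold for counting error alone, since reads are not independent molecules. Close paralogues (S100, Serpina3, Ccl and Gbp families) can share reads and are less certain.

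The 86 gene lists, the comparison and the rules were chosen with earlier results of these data known. A gene can stand in more than 1 list. Genes named were the 12 highest and 12 lowest fold changes of the core (mean at least 1 CPM, no overlap, predicted names left out), the 12 called genes with the highest mean CPM, up to 4 members with the smallest p of each list described, and Sesn1, Sesn2, Sesn3, Nppa, Nppb, Myh6, Myh7 and Acta1. Others are stated. The motif search was a description added to the comparison. Promoters are RefSeq's, and 95.5% of symbols were found once in GENCODE M21.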

Additional observations from a re-analysis of the deposited data

Results flagged for a closer look

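The response to IR differed between Sesn2-KO and young WT hearts for 8 genes by the test of the difference itself (edgeR interaction term, log2 difference ± SE, adjusted over 13859 genes). The difference was -4.26 ± 0.46 for Serpina3n (adjusted p = 0.000711), -3.32 ± 0.37 for Mmp3 (adjusted p = 0.000711), -3.35 ± 0.47 for Clec4d (adjusted p = 0.0111), -5.51 ± 0.81 for Spp1 (adjusted p = 0.0119), -5.67 ± 0.83 for Saa3 (adjusted p = 0.0119), -5.95 ± 0.89 for Lcn2 (adjusted p = 0.0121), -3.33 ± 0.54 for Ptx3 (adjusted p = 0.0242) and -1.78 ± 0.29 for Hmox1 (adjusted p = 0.0287). In each of the 8 the Sesn2-KO sham libraries all lay above the young WT sham libraries. Lcn2 lay at 149, 618 and 348 CPM in Sesn2-KO sham hearts, against 2.76 to 5.07 CPM in young WT sham hearts. Hmox1 lay at 47.9, 84.1 and 81.9 CPM, against 15.5 to 16 CPM. Saa3 lay at 8.94, 11.3 and 5.78 CPM, against 0.0693 to 0.237 CPM. Groups of 3 libraries are too small for a test of single outlying samples.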

How the results depend on the processing

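The count of 841 genes called (578 higher, 263 lower) was within 1.5 times under DESeq2 size factors (829), upper quartile scaling (797) and no filter on low counts (664). DESeq2's Wald test called 1318 (849 higher, 469 lower), limma voom with quality weights 2637 (1593 and 1044), the fit with a length trend covariate 2020 (1208 and 812) and the young libraries alone 169 (132 and 37). Leaving out 1 young library gave 270 to 1465 calls, 215 to 1060 higher and 49 to 405 lower. Without the 6 length-tilted libraries 16 were called (12 and 4), and without the tilted young pair, sham 1 and IR 3, chosen after seeing the data, 61 (51 and 10); fewer samples entered these fits. The share of calls that were higher, 68.7%, was 59.8% with the length covariate, 60.4% under limma voom, 64.4% under DESeq2's Wald test, 66.2% and 66.8% under the other scalings, 78.1% in the young libraries alone, 62.5% to 81.9% with 1 young library left out, 75.0% without the 6 tilted libraries and 83.6% without the tilted young pair. The difference of responses was called for 0 genes in aged WT under every alternative run. For Sesn2-KO it was called for 8 genes, with 30 under DESeq2's Wald test, 13 under limma voom, 2 to 16 with 1 young library left out, 0 without the 6 tilted libraries and 2 without the tilted young pair. Other causes of these moves were not tested. No named gene that was called changed sign under an alternative.

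Replicate numbers did not pair the samples: same-numbered libraries had correlations of deviations of -0.07, 0.07 and 0.03. With the replicate block 879 genes were called (605 higher, 274 lower) and 6 for the difference in Sesn2-KO. Of 210 called genes named by the rule, 201 kept their call with the block, 83 in the young libraries alone and 40 without the tilted young pair.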
